A study of Mus musculus with 21 samples.

Results

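The 4 Spalt-like genes of the mouse, Sall1 to Sall4, were followed through every H3K4me1 region that the deposited table assigns to them as nearest gene, at any distance from the start site. They hold 175 of the 186824 regions with levels, with 93 regions for Sall1, 8 for Sall2, 57 for Sall3 and 17 for Sall4. H3K4me1 is a histone mark of enhancers and promoter flanks. It was profiled by CUT&RUN, which uses an antibody to guide a nuclease to the marked chromatin and sequences what is cut loose. The cells were mouse embryonic stem cells of 4 genotypes in 2 states, formative, 63 h after LIF and 2i were withdrawn, and naive, kept in LIF and 2i. DKO lacks MLL3 and MLL4 (label MLL3KO_MLL4KO), the enzymes that place much of the H3K4me1 at enhancers. dCD carries CD alleles of both (label MLL3CD_MLL4CD, cell line R1), which stand for catalytically dead enzymes. The floxed line (label MLL3KO_MLL4fl) lacks MLL3 as DKO does and has a floxed MLL4. Wild type carries the label WT and the cell line R1. No cell line is given for DKO or the floxed line, and whether any line is a single clone is not given in the sources used here.

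SALL proteins are transcription factors with pairs of zinc fingers that bind AT-rich DNA, and a short motif at their amino end recruits the NuRD deacetylase complex. Sall4 works beside Oct4 and Nanog in embryonic stem cells. Sall1, also expressed in these cells, is needed for kidney outgrowth, and mutations of human SALL1 and SALL4 cause Townes-Brocks and Duane-radial ray syndromes, which affect the limbs. Sall2 is the most divergent member and acts in neural and eye development, while Sall3 acts in the palate and cranial nerves. Thalidomide makes the ubiquitin ligase adaptor cereblon mark human SALL4 for degradation.

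DNA at 5 places is shown first, at the largest wild-type gains of Sall1, Sall2 and Sall4 and at the 2 Sall2 promoters. The first 3 sequences are the central 300 bases of the regions with the largest formative gain in wild type for Sall1 (chr8:89210123-89211142), Sall2 (chr14:52322321-52324713) and Sall4 (chr2:168803845-168806393), on the plus strand of mm10. The other 2 are the Sall2 promoters from RefSeq (GRCm38.p6), from 250 bases before to 50 after each of its RefSeq start sites, on the minus strand. Capitals mark CpG dinucleotides.
Sall1 region 166 kb upstream: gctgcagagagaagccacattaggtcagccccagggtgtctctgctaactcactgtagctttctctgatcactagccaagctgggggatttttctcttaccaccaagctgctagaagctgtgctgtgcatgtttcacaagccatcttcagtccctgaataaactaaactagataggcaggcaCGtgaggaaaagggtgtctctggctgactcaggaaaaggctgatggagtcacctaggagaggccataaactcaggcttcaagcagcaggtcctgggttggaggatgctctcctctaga
Sall2 intron region: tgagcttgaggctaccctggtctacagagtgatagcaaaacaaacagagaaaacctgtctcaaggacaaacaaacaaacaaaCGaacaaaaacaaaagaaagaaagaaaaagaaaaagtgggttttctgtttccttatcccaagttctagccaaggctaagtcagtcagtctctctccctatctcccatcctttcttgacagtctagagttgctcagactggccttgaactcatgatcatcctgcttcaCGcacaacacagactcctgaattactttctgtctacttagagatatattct
Sall4 region 37.9 kb upstream: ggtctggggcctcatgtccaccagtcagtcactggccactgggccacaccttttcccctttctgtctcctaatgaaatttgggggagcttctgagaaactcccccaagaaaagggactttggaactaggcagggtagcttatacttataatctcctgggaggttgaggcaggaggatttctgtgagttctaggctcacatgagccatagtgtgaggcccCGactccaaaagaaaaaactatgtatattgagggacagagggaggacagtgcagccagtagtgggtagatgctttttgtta
Sall2 promoter at the downstream start: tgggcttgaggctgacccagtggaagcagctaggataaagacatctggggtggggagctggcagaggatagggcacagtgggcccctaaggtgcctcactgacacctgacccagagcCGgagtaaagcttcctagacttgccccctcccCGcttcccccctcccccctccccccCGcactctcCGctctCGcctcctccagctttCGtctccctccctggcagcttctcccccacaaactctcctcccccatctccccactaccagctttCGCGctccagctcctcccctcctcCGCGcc
Sall2 promoter at the upstream start: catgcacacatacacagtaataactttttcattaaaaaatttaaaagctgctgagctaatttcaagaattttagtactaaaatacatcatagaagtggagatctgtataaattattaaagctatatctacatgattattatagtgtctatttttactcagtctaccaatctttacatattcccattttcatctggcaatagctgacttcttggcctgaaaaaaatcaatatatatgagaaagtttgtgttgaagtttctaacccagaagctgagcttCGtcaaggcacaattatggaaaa
The Sall1 and Sall4 windows hold 1 CpG each and the Sall2 intron window holds 2. The promoter at the downstream start of Sall2 holds 10 CpG at a GC content of 65.0%, and that at the upstream start holds 1 at 30.3%. The letters ATTTGCAT (octamer), CATTGTT (SOX) and TAATCC (OTX), searched on both strands, are in none of the 5 windows. They occur in 1.74%, 3.78% and 7.06% of 32851 RefSeq promoters of the same length, and in the central 300 bases of 2.18%, 4.79% and 11.0% of all regions. Over the 175 Sall regions the medians were 46.5% GC and 1.19 CpG per 100 bases, against 46.2% and 1.17 over all regions.

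Each group had 2 libraries, but the table gives 1 pooled level per group. There is therefore no spread between replicates and no test between genotypes, and differences are described by their size. The exception is the wild-type transition from naive to formative, for which the authors' deposited table gives a fold and an FDR per region. A difference is one of log2 levels within a region, minus the median difference of all regions on its chromosome in the same comparison, and a region was counted at 2-fold, which is 1 on this scale. The subtraction weighs most on Sall1, since chromosome 8 had medians of −0.45 in formative and −0.57 in naive cells for dCD minus wild type, and of −0.35 and −0.45 for the floxed line minus wild type. For Sall2, chromosome 14 had −0.39 in formative and −0.48 in naive cells for DKO minus the floxed line. Median depth over all regions lay between 29.6 normalized reads in formative dCD and 39.2 in naive wild type. The lowest value in a Sall region was 2.49, in the formative floxed line. H3K4me1 levels do not show whether an allele is deleted, so genotypes rest on the labels. Label fields give conflicting catalogue numbers for the antibody, one of them that of an antibody sold against H3K27ac, and the mark is called H3K4me1 as in the sample names. Formative wild-type cells had lower levels than naive ones at the loci of the naive factors Tfcp2l1 (−1.34) and Klf4 (−0.68). These were the only 2 of 13 core pluripotency loci past 1.5-fold in that comparison, against 13.3% of all 21535 loci higher and 13.7% lower. The median over the 13 loci was 0.07, against −0.05 over all genes, so the list as a whole was not lower.

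The regions differ in how they sit around the genes. Sall1 (minus strand, chr8:89027235-89044162, mm10) lies at the edge of a long gene-poor stretch, with the next coding gene upstream, Tox3, 1202.878 kb away. All 93 of its regions have their centre upstream and are annotated as intergenic, and they reach 615 kb from the start site. The nearest, chr8:89043060-89052202, covers the start site. It had 350 normalized reads in formative and 348 in naive DKO cells and 272 and 297 in dCD. The floxed line had 261 in formative and 255 in naive cells there, and wild type 265 and 319. Sall3 (minus strand, chr18:80966376-80986771) is placed alike, with Galr1 1405.609 kb upstream. Of its 57 regions 55 lie upstream, as far as 489 kb, and none covers the start site. Sall4 (minus strand, chr2:168748332-168767943) has 16 of 17 regions upstream, up to 64.4 kb, with Zfp64 125.388 kb away. Sall2 (minus strand, chr14:52311172-52328762) is compact, with 8 regions within 8.29 kb of a start site. The gene annotation starts its 2 transcripts at positions 52328762 and 52316323, while RefSeq has the upstream start 92 bases further in, at 52328670. The table's distances for the 8 regions match one or the other RefSeq start within 0.02 kb. Only 1 of the 175 regions has its centre within 1 kb of a start site, at the upstream Sall2 promoter. A pair of regions over the Sall1 gene body, with another or no gene name, and 1 at the end of Sall4, named after Atp9a, are not among the 175.

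Sall1 gained H3K4me1 at regions far upstream when wild-type cells entered the formative state. At an FDR of 0.05 in the authors' deposited table, 18 of its 93 regions were gained, all between 166 and 615 kb upstream, and 4 were lost, between 16.2 and 141 kb upstream. Over all regions of the authors' deposited table, 9.82% were gained and 10.5% lost. On the difference of levels, 23 Sall1 regions were at least 2-fold higher in formative wild-type cells and 1 was lower, against a background of 11.6% of all regions higher and 10.6% lower. Chromosome 8 had a median of −0.19 in this comparison. Without its subtraction 16 Sall1 regions were higher and 2 lower, against 11.1% and 11.4% of all regions.

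The leading Sall1 region, 166 kb upstream (chr8:89210123-89211142) and shown above, had 7.27 normalized reads in formative and 6.70 in naive DKO cells. It had 20.9 in formative and 12.5 in naive dCD cells, and 37.7 in formative and 12.3 in naive cells of the floxed line. In wild type it had 53.3 in formative and 7.68 in naive cells, a centred difference of 2.95, with an FDR of 1.86e-06 in the authors' deposited table. Formative levels thus stood in the order DKO, dCD, floxed line, wild type, from low to high, while naive levels were all under those of formative dCD.

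The next Sall1 region by size, 378 kb upstream (chr8:89421966-89422946), had 4.57 normalized reads in formative and 7.51 in naive DKO cells, and 7.57 and 5.21 in dCD, values that rest on few reads. The floxed line had 17.6 in formative and 5.61 in naive cells, and wild type 41.2 and 9.28. At the third, 299.8 kb upstream (chr8:89342745-89345097), the states were close in DKO, at 27.8 in formative and 29.7 in naive cells, and in dCD, at 29.0 and 27.8. There the floxed line had 65.6 in formative and 17.9 in naive cells, and wild type 87.6 and 28.9. At all 3 regions the formative level was more than 2-fold above the naive one in the floxed line and wild type and in neither mutant.

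Read in genotypes whose libraries did not define the class, the 18 gained Sall1 regions had a median transition of −0.07 in DKO, 0.13 in dCD and 1.13 in the floxed line, beside 1.27 in wild type. Of the 18, 8 were above 0 in DKO, 11 in dCD and all in the floxed line. None was 2-fold higher in DKO or dCD, and 10 were in the floxed line, against 3.92% of all gained regions in DKO, 5.70% in dCD and 55.2% in the floxed line. Over all 18339 gained regions of the table the medians were 0.15 in DKO, 0.29 in dCD, 1.09 in the floxed line and 1.42 in wild type, so the Sall1 values lie near those of gained regions at large. The 4 lost Sall1 regions were below 0 in every genotype, with medians of −0.26 in DKO, −0.38 in dCD, −0.60 in the floxed line and −0.55 in wild type. The largest authors' folds among them belong to regions 141, 86.0 and 40.6 kb upstream. The one 141 kb upstream (chr8:89183467-89186693) had 53.3 normalized reads in formative and 57.2 in naive DKO cells, 39.1 and 47.9 in dCD, 35.4 and 57.7 in the floxed line, and 53.6 and 113 in wild type.

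Distance divided the Sall1 regions. In DKO the median transition stayed between −0.33 and 0.11 in every 100 kb interval. In the floxed line it was −0.08 over the 16 regions within 100 kb of the start site, 0.60 over the 17 from 200 to 300 kb and 0.78 over the 10 from 300 to 400 kb. Wild type had −0.03 within 100 kb, 0.09 over the 18 regions from 100 to 200 kb, 0.68 from 200 to 300 kb and 0.74 from 300 to 400 kb. Beyond that, wild type had 0.48 over 17 regions and 0.39 over 12, and the 3 regions past 600 kb had −0.44, where the floxed line had 1.27.

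**Figure D1:**
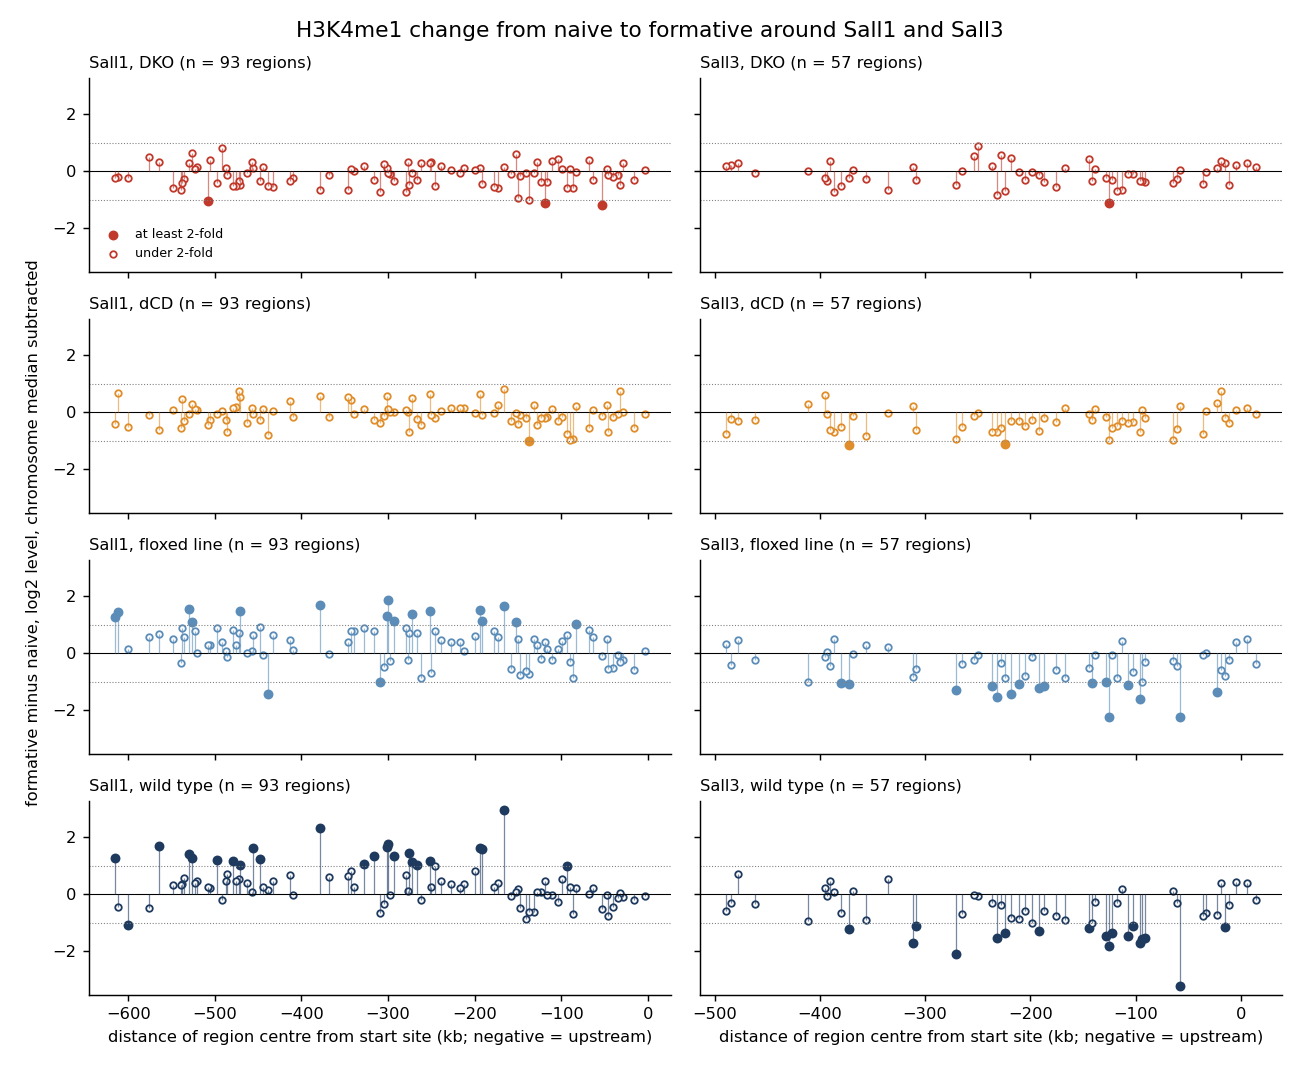
H3K4me1 difference of formative minus naive cells, in log2 level with the chromosome median subtracted, against the distance of each region from the start site in kb, for Sall1 (left, 93 regions) and Sall3 (right, 57 regions), with 1 row each for DKO, dCD, the floxed line and wild type. Filled points are at least 2-fold; in DKO no region of either gene is 2-fold higher and 3 and 1 are lower, while in wild type 23 Sall1 regions are 2-fold higher and 18 Sall3 regions 2-fold lower.

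Sall3 went the other way in wild type. In the authors' deposited table, 16 of its 57 regions were lost at that FDR and none was gained, and 18 were at least 2-fold lower in formative wild-type cells with none higher. Over all regions 10.5% were lost, 9.82% gained, 10.6% at least 2-fold lower and 11.6% higher. At an FDR of 0.01 in the authors' deposited table, 6 Sall3 regions were lost. All 16 lost regions lie between 57.6 and 312 kb upstream. The leading one, 57.6 kb upstream (chr18:81043862-81045476), had 20.8 normalized reads in formative and 20.1 in naive DKO cells, and 17.8 in formative and 15.8 in naive dCD cells. The floxed line had 13.2 in formative and 68.6 in naive cells. Wild type had 4.75 in formative and 50.2 in naive cells, a centred difference of −3.21, with an FDR of 2.17e-06 in the authors' deposited table. The 4.75 reads are the lowest value of any Sall region in formative wild type, so the size of that difference rests on few reads. In both mutants naive levels were thus lower, and formative levels higher, than in the floxed line and wild type.

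The next lost region by size, 270 kb upstream (chr18:81256522-81258379), was low in both states of both mutants, at 7.61 normalized reads in formative and 10.9 in naive DKO cells and at 5.92 and 12.3 in dCD. The floxed line had 19.5 in formative and 52.8 in naive cells, and wild type 11.1 and 51.1. At the third, 312 kb upstream (chr18:81298053-81299560), DKO had 19.2 in formative and 17.4 in naive cells and dCD 17.9 and 15.96. The floxed line had 9.85 in formative and 19.4 in naive cells there, and wild type 7.87 and 27.7. Formative levels of the mutants at lost Sall3 regions were thus above wild type at the regions 57.6 and 312 kb upstream and below it at the one 270 kb upstream.

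The 16 lost Sall3 regions had median transitions of −0.28 in DKO, −0.32 in dCD and −1.0 in the floxed line, beside −1.41 in wild type. Below 0 were 12 in DKO, 12 in dCD and all 16 in the floxed line. At 2-fold, none was lower in DKO, 1 was in dCD and 8 were in the floxed line, against 1.80%, 4.99% and 44.2% of all lost regions. Over all 19643 lost regions the medians were −0.14 in DKO, −0.29 in dCD, −0.93 in the floxed line and −1.19 in wild type. The lower values were spread along the stretch. Median wild-type transitions were −0.72 over the 13 regions within 100 kb upstream, −0.99 over 15 from 100 to 200 kb, −0.68 over 11 from 200 to 300 kb and −0.06 over 11 from 300 to 400 kb.

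**Figure D2:**
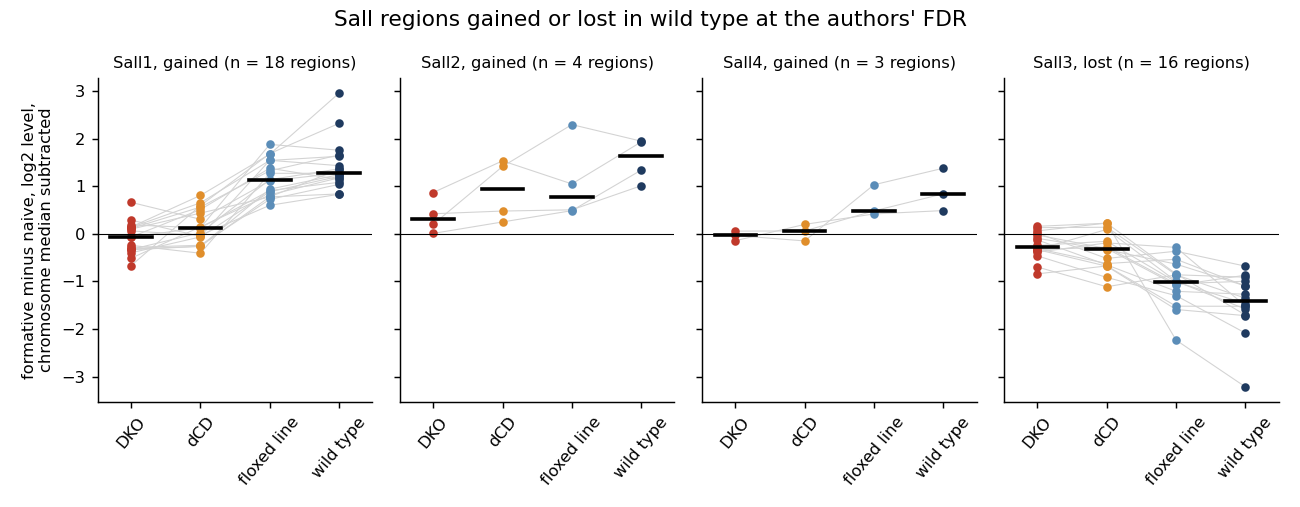
Formative minus naive H3K4me1, in log2 level with the chromosome median subtracted, for the Sall regions gained or lost in wild type at the authors' FDR, in DKO, dCD, the floxed line and wild type. Points are regions joined by grey lines and black bars are medians; the wild-type values chose the regions, and the gained Sall1 regions have medians of −0.07 in DKO, 0.13 in dCD, 1.13 in the floxed line and 1.27 in wild type.

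Sall2 gained H3K4me1 over much of its locus. In wild type 5 of its 8 regions were at least 2-fold higher in formative cells and none was lower, 4 were gained in the authors' deposited table, and the median transition was 1.17. Over all regions 11.6% were 2-fold higher and 9.82% gained. The intron region 5.15 kb from the upstream RefSeq start (chr14:52322321-52324713), shown above, had 28.5 normalized reads in formative and 24.1 in naive DKO cells. dCD had 60.4 in formative and 22.8 in naive cells, and the floxed line 82.3 in formative and 16.7 in naive cells. Wild type had 104 in formative and 26.6 in naive cells, with an FDR of 1.52e-06 in the authors' deposited table. The formative level was more than 2-fold above the naive one in every genotype but DKO.

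The upstream Sall2 promoter region (chr14:52329127-52329965), beside the second promoter shown above, had 10.5 normalized reads in formative and 5.55 in naive DKO cells, and 28.0 in formative and 9.96 in naive dCD cells. The floxed line had 39.2 in formative and 19.8 in naive cells, and wild type 51.0 and 13.5, so that formative levels were the higher ones in all 4 genotypes. Centred, the formative minus naive difference was 0.87 in DKO, 1.53 in dCD, 1.05 in the floxed line and 1.93 in wild type. DKO had the lowest level of the 4 genotypes in both states.

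The other 2 gained Sall2 regions showed smaller differences between states in dCD. The region at chr14:52319289-52321991 had 33.9 normalized reads in formative and 33.0 in naive DKO cells, 50.0 and 43.5 in dCD, 85.9 and 63.7 in the floxed line, and 84.1 and 32.9 in wild type. The region at chr14:52330258-52334005 had 57.1 in formative and 41.0 in naive DKO cells, 61.3 and 45.0 in dCD, 169.5 and 124 in the floxed line, and 166.9 and 82.8 in wild type. Over the 8 regions the median transition was 0.39 in DKO, 0.63 in dCD, 0.58 in the floxed line and 1.17 in wild type. All 8 were above 0 in DKO, where none was 2-fold higher, and 3 were 2-fold higher in dCD and 2 in the floxed line. The region over the last exon (chr14:52311065-52316190) had 243.6 reads in formative and 185 in naive DKO cells, 291.6 and 215 in dCD, 189 and 177 in the floxed line, and 160.6 and 151.6 in wild type.

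Sall4 had 1 region that was at least 2-fold higher in formative wild-type cells, against 11.6% of all regions, and none that was lower. In the authors' deposited table, 3 of its 17 regions were gained and 1 was lost in wild type, against 9.82% and 10.5% of all regions, and the median transition was 0.49. The region past 2-fold, 37.9 kb upstream (chr2:168803845-168806393) and shown above, was close between states in both mutants, at 31.1 normalized reads in formative and 31.6 in naive DKO cells and at 29.4 and 33.0 in dCD. The floxed line had 68.3 in formative and 33.1 in naive cells, and wild type 71.9 and 26.4. The 3 gained regions had medians of −0.03 in DKO, 0.06 in dCD and 0.48 in the floxed line, beside 0.84 in wild type. The lost region covers most of the gene body (chr2:168749745-168765672) and had 712 reads in formative and 659 in naive DKO cells, 459 and 636 in dCD, 428 and 615 in the floxed line, and 356 and 508 in wild type. The region over the start site (chr2:168766849-168771441) differed little, with formative levels of 176 in DKO, 153 in dCD, 195 in the floxed line and 161 in wild type, and naive levels of 157, 147, 173 and 144.

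**Figure D3:**
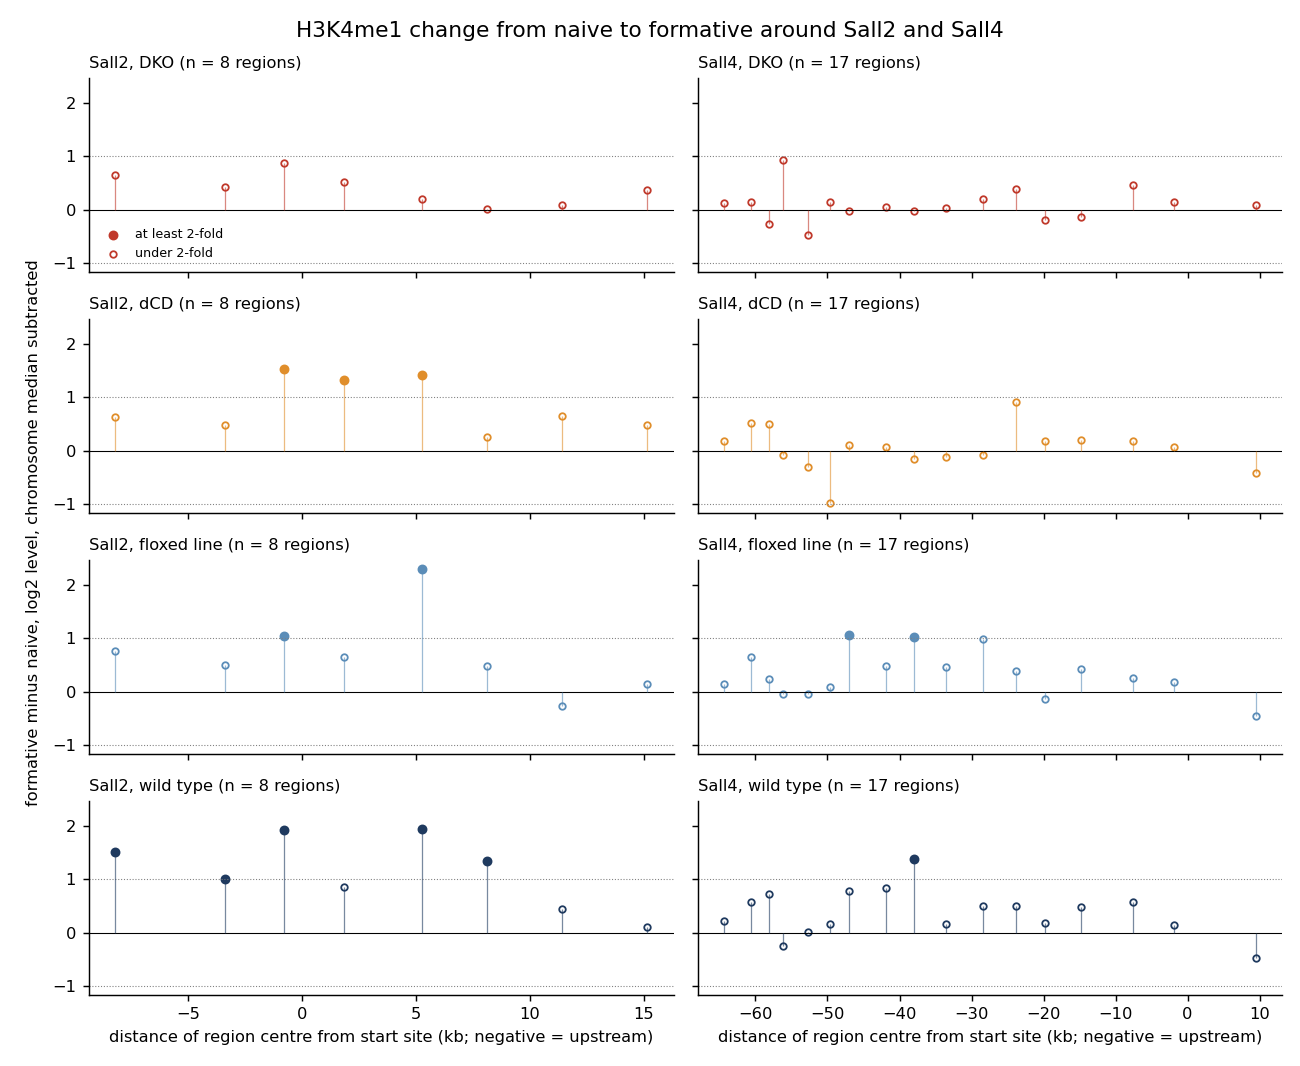
H3K4me1 difference of formative minus naive cells, in log2 level with the chromosome median subtracted, by distance in kb from the start site (for Sall2 from the upstream start of the gene annotation), for Sall2 (left, 8 regions) and Sall4 (right, 17 regions), with rows for DKO, dCD, the floxed line and wild type. Filled points are at least 2-fold; Sall2 has none in DKO, 3 in dCD, 2 in the floxed line and 5 in wild type, and Sall4 has 2 in the floxed line and 1 in wild type.

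**Figure D4:**
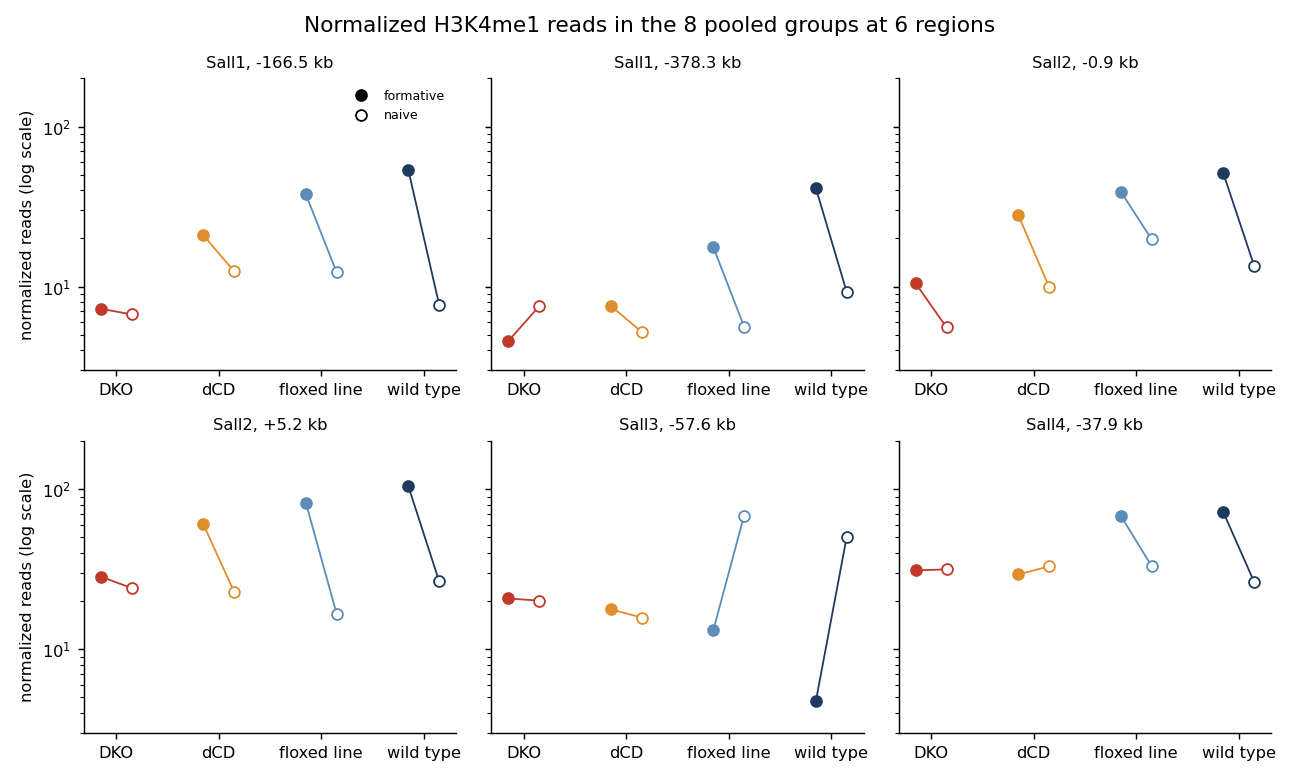
Normalized H3K4me1 reads (log axis) in formative (filled) and naive (open) cells of DKO, dCD, the floxed line and wild type at 6 regions, named by gene and distance from the start site. Each point is 1 pooled column with no error bar; at the Sall4 region both mutants lie between 29.4 and 33.0 reads, while formative values of the floxed line and wild type are 68.3 and 71.9.

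Over the 4 genes together, transitions in the mutants were small. In DKO 4 of the 175 regions fell short of the naive level by at least 2-fold in formative cells and none exceeded it, against 1.22% and 1.2% of all regions. In dCD 3 were lower and 3 higher, against 2.11% and 1.58%, and the 3 higher ones are all Sall2 regions. In the floxed line 18 were lower and 20 higher, against 8.86% and 10.6%, and in wild type 19 were lower and 29 higher, against 10.6% and 11.6%. Without the subtraction wild type had 22 lower and 21 higher, against 11.4% and 11.1%. Whether transitions differ between genotypes was not tested, since no replicates enter these values.

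DKO was set against the floxed line, from which it differs in the labels by the MLL4 allele. These differences share the floxed libraries with the floxed transition. In formative cells DKO was lower by at least 2-fold at 40 of the 175 regions and higher at 11, against a background of 13.2% lower and 9.11% higher. Sall1 held 29 of the 40, with 1 higher and a median of −0.69, and 73 of its 93 regions were below 0. Sall2 had 4 of 8 lower with a median of −1.01, and Sall4 had 4 of 17 lower with a median of −0.51. Sall3 had 10 regions higher and 3 lower, with a median of 0.32. The lowest value was at the Sall1 region 166 kb upstream (−2.36). At the Sall1 region 492 kb upstream (chr8:89535342-89536418), the highest of that gene, formative DKO cells had 25.5 normalized reads and the formative floxed line 11.4.

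The highest Sall3 region lies 411 kb upstream (chr18:81396554-81399120), with 116 normalized reads in formative DKO cells and 34.8 in the formative floxed line, and with 115 in naive DKO cells and 75.8 in the naive floxed line. The lowest, 387 kb upstream (chr18:81373122-81374456), had 7.21 in formative DKO cells and 19.9 in the formative floxed line. For Sall4 the lowest region, 14.8 kb upstream (chr2:168778878-168785143), had 93.4 in formative DKO cells and 304 in the formative floxed line. Naive cells differed the same way there, at 103 in DKO and 228 in the floxed line, unlike the region 37.9 kb upstream, where the naive levels were 31.6 and 33.1.

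In naive cells DKO was lower at 18 regions and higher at 7, against 11.0% and 7.19% of all regions. The medians were −0.13 for Sall1, −0.28 for Sall2, −0.13 for Sall3 and −0.16 for Sall4, and −0.76 for Sall2 without the subtraction. The lowest Sall1 region, 250.5 kb upstream (chr8:89293748-89295622), had 15.5 normalized reads in naive DKO cells and 74.5 in the naive floxed line. The highest, 611.6 kb upstream (chr8:89655042-89656557), had 21.7 in DKO and 6.25 in the floxed line. Sall3 had its lowest value at the lost region 270 kb upstream (−2.05) and its highest 355.8 kb upstream (chr18:81342315-81343237), with 25.4 reads in DKO and 8.52 in the floxed line. At Sall4 the region 7.63 kb upstream (chr2:168772147-168777508) had 46.4 in DKO and 140.1 in the floxed line.

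Read by the classes defined in wild type, gained Sall1 regions had a median of −0.96 in formative and 0.13 in naive cells for DKO minus the floxed line, and all 18 were below 0 in formative cells. Gained Sall2 regions had −1.12 in formative and −0.75 in naive cells, and gained Sall4 regions −0.95 and −0.11. Lost Sall3 regions had 0.38 in formative and −0.56 in naive cells, with 13 of 16 above 0 in formative cells and 11 of 16 below 0 in naive cells. The 4 lost Sall1 regions had 0.24 in formative and −0.20 in naive cells. Values of DKO minus the floxed line over all gained or all lost regions were not computed. These medians and counts are therefore not shown to be particular to the Sall genes. In each of these classes the ranges over regions overlapped between the states, as for gained Sall2 regions, at −1.50 to −0.91 in formative and −1.33 to 0.98 in naive cells.

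dCD was set against wild type, both of the R1 line. In formative cells dCD was lower by at least 2-fold at 28 regions and higher at 8, against 11.9% and 7.67% of all regions. Sall1 held 25 of the 28 with none higher and a median of −0.64, and 81 of its 93 regions were below 0. Without the subtraction of the chromosome median, 68 Sall regions were lower, 56 of them at Sall1, against 20.1% of all regions. Sall3 had 7 higher and 1 lower, with a median of 0.32. Without the subtraction the Sall3 median was 0.037, with 5 regions higher and 5 lower. Sall2 and Sall4 had medians of −0.43 and −0.51, with 2 and 0 regions lower. Without the subtraction these medians were −0.75 and −0.80, with 2 and 5 regions lower. The lowest value was at the Sall1 region 378 kb upstream (−1.97), with 7.57 normalized reads in dCD and 41.2 in wild type. The highest was at the Sall3 region 57.6 kb upstream (2.08), with 17.8 reads in dCD and 4.75 in wild type, so that it rests on few wild-type reads. Among Sall2 regions that over the last exon was highest (1.16), and that 8.29 kb upstream (chr14:52336597-52337328) was lowest, with 6.23 reads in dCD and 17.1 in wild type.

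In naive cells dCD was lower at 10 regions and higher at 3, against 6.63% and 5.15%, and the medians lay between −0.08 for Sall1 and 0.13 for Sall2. Without the subtraction these 2 were −0.65 and −0.16, and 22.3% of the 175 regions were at least 2-fold lower, against 13.9% of all regions. The lowest of Sall1 was 537.6 kb upstream (chr8:89581023-89582588), with 8.66 normalized reads in dCD and 38.6 in wild type. The lowest of Sall3 was again the region 270 kb upstream (−1.72). The highest was the Sall1 region 166 kb upstream (1.25), with 12.5 reads in dCD and 7.68 in wild type. Without the subtraction its difference was 0.68, under 2-fold. In that setting 0% of the Sall regions were at least 2-fold higher, against 1.55% of all regions. The floxed line was also set against wild type, from which it differs in the labels by the MLL3 knockout and the floxed MLL4. Its cell line is not given. There 1 region was higher and 1 lower in the formative floxed line, against 0.763% and 2.91%, and 1 was higher and 4 lower in the naive floxed line, against 0.935% and 3.71%. Medians were within 0.13 of 0 except that of Sall2 in naive cells, 0.58. Without the subtraction the Sall1 medians were −0.47 in formative and −0.56 in naive cells.

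**Figure D5:**
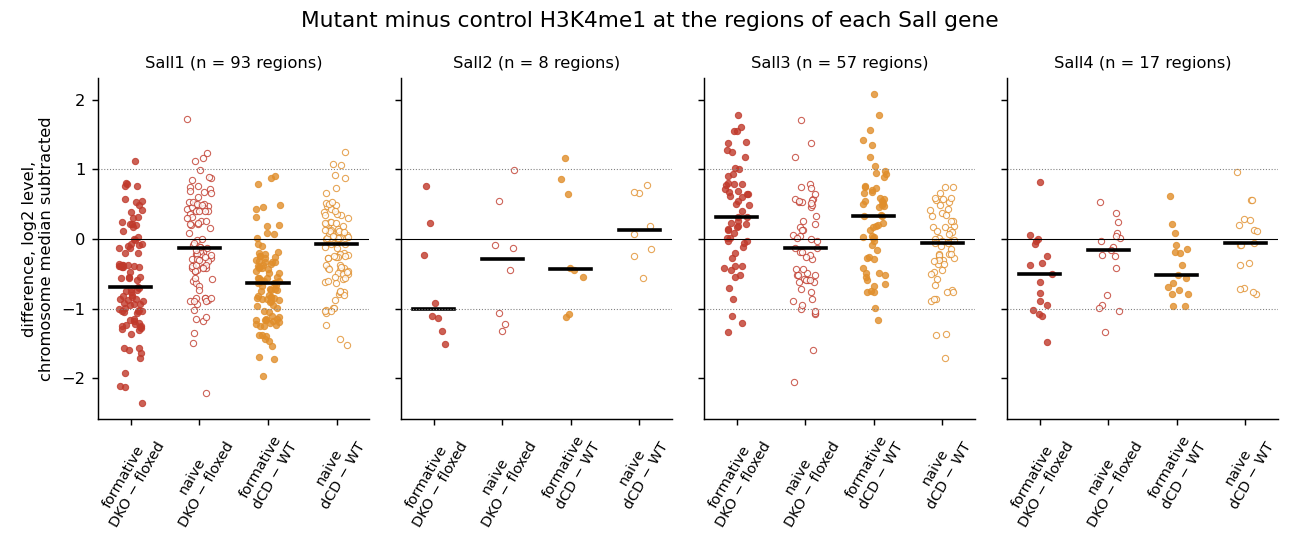
Centred log2 differences of DKO minus the floxed line (red) and dCD minus wild type (orange) in formative (filled) and naive (open) cells at the regions of each Sall gene, with black bars for medians and dotted lines at 2-fold. Formative medians are −0.69 and −0.64 for Sall1, −1.01 and −0.43 for Sall2, 0.32 and 0.32 for Sall3, and −0.51 and −0.51 for Sall4, for DKO minus the floxed line and dCD minus wild type in that order.

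Set per length over the regions within 50 kb of the start, Sall2 was the densest of the 4 genes in formative wild type. Normalized reads per kb of covered sequence at Sall2 were 26.4 in DKO, 37.5 in dCD, 39.5 in the floxed line and 38.4 in wild type in formative cells, and 20.2, 22.8, 29.1 and 21.3 in naive cells. At Sall1 the formative densities were 21.4, 17.5, 22.9 and 30.5 in DKO, dCD, the floxed line and wild type. In naive cells Sall1 had 23.7, 22.2, 30.9 and 40.1, the last being the highest density of the 4 genes in any group. No chromosome median is subtracted from these densities. In naive cells all of chromosome 8 had medians of −0.45 for the floxed line and −0.57 for dCD, each minus wild type. For DKO minus the floxed line its naive median was 0.0017. With the chromosome median of each group subtracted, the mean naive log2 level at Sall1 was −0.61 in DKO and −0.54 in dCD. It was −0.02 in the floxed line and −0.07 in wild type. Sall3 lay between 26.1 and 31.8 and Sall4 between 23.1 and 33.3 over the 8 groups. With 1 pooled value per group, neighbours in these orders cannot be told apart from variation between libraries.

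The authors' deposited table also carries log2 folds of RNA for the nearest gene, from samples outside this series and with no error given. In the authors' deposited table Sall2 RNA was higher in formative than in naive cells by 2.85 in DKO and 3.43 in wild type. For Sall1 the same folds of the authors' deposited table were −0.44 in DKO and −0.54 in wild type, and for Sall4 0.58 and −0.01. Sall3, with a value on 2 of its 57 regions, had 1.60 in DKO and −0.95 in wild type in the authors' deposited table. Between genotypes, the authors' deposited table gives DKO minus wild type in formative cells as 0.40 for Sall1, −0.91 for Sall2, −0.00 for Sall3 and 0.04 for Sall4. In naive cells the authors' deposited table gives 0.30, −0.33, −2.55 and −0.55 in the same order. In wild type Sall2 thus had gained regions and a positive RNA fold, and Sall1 had 18 gained and 4 lost regions and a negative one. The gained Sall1 regions lie at least 166 kb upstream, and the lost ones lie nearer, between 16.2 and 141 kb upstream. The median transition over the Sall1 regions within 50 kb was −0.10. Sall3 had lost regions and a negative RNA fold. Whether the mark at any of these regions bears on the RNA was not tested.

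H3K27ac, the mark of active enhancers and promoters, is given in the authors' deposited table as log2 folds at the same regions, also from samples outside this series. In the authors' deposited table, 2 Sall2 regions were at least 2-fold higher in formative than in naive DKO cells, with a median of 0.07, and all 8 were in wild type, with a median of 1.76. Over all regions of the authors' deposited table these shares were 21.7% in DKO and 33.0% in wild type. Between genotypes in formative cells, the authors' deposited table has 7 of 8 Sall2 regions and 60 of 93 Sall1 regions at least 2-fold lower in DKO than in wild type, with medians of −2.43 and −1.54, against 27.8% and a median of −0.20 over all regions. In naive cells the Sall1 median of DKO minus wild type in the authors' deposited table was −1.10, and that of Sall2 −0.29. No chromosome median was subtracted from the H3K27ac folds. For H3K4me1, chromosome 8, which holds Sall1, had medians of −0.35 in formative and −0.45 in naive cells for the floxed line minus wild type. Whether H3K27ac shares that offset was not tested. Some folds are extreme, as at chr8:89643962-89644615, where DKO minus wild type was 7.26 in naive and 0 in formative cells. The depth behind them was not examined. For the 18 gained Sall1 regions the authors' deposited table gives a formative minus naive median of 0.35 in DKO and 1.02 in wild type, and for the 16 lost Sall3 regions −0.83 and −0.69. Over all gained regions these medians were 0.46 in DKO and 1.32 in wild type, and over all lost regions −0.22 and −0.32. Sall4 medians were between 0.08 and 0.33 in the 4 comparisons of the authors' deposited table.

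Loci of partner genes and of genes from the same developmental settings were read as the mean difference over regions within 50 kb and counted at 1.5-fold. On that measure the transition of Sall1 was −0.11 in DKO, −0.06 in dCD, −0.20 in the floxed line and −0.20 in wild type. Sall2 had 0.39, 0.84, 0.70 and 1.14 in the same order, Sall3 had 0.06, −0.01, −0.28 and −0.29, and Sall4 had 0.09, −0.01, 0.39 and 0.43. Of all 21535 loci 1.53% were higher and 1.12% lower in DKO, 2.99% and 1.68% in dCD, 12.0% and 12.0% in the floxed line, and 13.3% and 13.7% in wild type. Among 15 NuRD subunits, the complex that SALL proteins recruit, none passed in DKO or dCD, and in wild type none was higher and 3 were lower, Rbbp4 (−0.87), Hdac1 (−0.81) and Hdac2 (−0.66). Among 17 limb and kidney genes none was higher in DKO, 1 was in dCD and 7 were in both the floxed line and wild type, counted separately. In wild type Shh (1.00), Hand2 (0.99), Tbx5 (0.93) and Gli3 (0.91) had the largest values, Shh and Hand2 from 1 region each, and the cereblon gene Crbn (−0.90) was the 1 lower locus. In formative cells DKO stood above the floxed line at 3 NuRD loci, with none lower, and at 1 limb and kidney locus, with 2 lower, against 19.4% of all loci higher and 9.69% lower. Of 11 fibroblast marker loci none was higher in DKO or dCD, 5 were in the floxed line and 5 in wild type, where Fap (2.12), Col1a2 (1.27), Prrx1 (1.12) and Dcn (1.12) were the largest, Fap and Dcn with 1 region each. In formative DKO minus the floxed line none of these 11 was higher and 4 were lower. These are marks at loci, and whether fibroblasts contributed to any group was not tested.

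The genes whose mean level within 50 kb followed each Sall gene most closely over the 8 groups were found among 1662 genes by Pearson's r. For Sall1 they were Fcgrt, ccdc198 and Ascl2, each at 0.98, and for Sall2 Lin28b (0.98), Stk17b (0.98) and Mmadhc (0.97). Sall3 was most like Clptm1, Eif3c and Atxn1l, each at 0.99, and Sall4 most like 1700017B05Rik (0.98), Nrxn3 (0.97) and Auts2 (0.97). These are descriptions, chosen as the best of many genes, over 8 pooled groups whose libraries and depth all genes share.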

How the data were processed

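The series holds 21 CUT&RUN samples, of which 16 are H3K4me1 libraries, 2 for each of 8 groups. The 4 MLL4 libraries and the IgG library were not analysed here. Tools listed in the submitters' processing notes are DiffBind, SEACR, deepTools, Trim Galore and Bowtie2, with mm10 as the build and no roles. Per the file headers, the deposited H3K4me1 levels are log2 values with 1 pooled column per group, and CKO in a header was read as the floxed line, from its sample descriptions. The authors' deposited table also gives a log2 fold, p-value and FDR for formative against naive wild type, and log2 folds of RNA and H3K27ac from samples outside this series. Another 14 level columns were not used.

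Of 186826 rows, 2 without levels were left out, and no filter on low values was applied. Deposited levels fall with the square of the region's width (slope −2.005 on log2 width, with 22.248 as offset), so they were compared only within a region and converted back to normalized reads to show depth. These are not raw counts, so no counting interval is given, and a counting half-width taken from them served only as a rough measure of whether a median moved under an alternative. The planned test per region needs columns per library, and sizes are given instead, for 10 comparisons. A region passed at 2-fold after subtraction of its chromosome's median, and a locus, the mean over regions within 50 kb, at 1.5-fold. Python 3.11.15 with pandas 2.3.3, numpy 2.4.6 and matplotlib 3.10.9 was used, and the counting was tested on simulated data. Promoter sequences were matched by symbol in RefSeq, with 3 for Sall1 and 2 for Sall2.

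The members and gene lists were chosen with earlier results of these data known. Regions named with values are the promoter region, the largest difference past 2-fold in each direction per gene and comparison, and the gained or lost regions with the 3 largest authors' folds per gene, beside those over a start site, a gene body or an exon. Similar genes had at least 5 regions within 50 kb and a span of at least 1 over the groups, and listed genes are named up to 4 per list by size. Alternatives were no centring, centring on all regions, a minimum of 32 normalized reads, only regions within 50 kb, levels as reads, and a stricter FDR.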

Additional observations from a re-analysis of the deposited data

Results flagged for a closer look

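At 4 Sall regions the transition was past 2-fold in both the floxed line and wild type and had the opposite sign in both DKO and dCD, and the difference between genotypes was not tested. The share of all regions meeting this rule was not computed, so the 4 are not shown to be particular to the Sall genes. Over all regions the quartiles of the transition were −0.25 and 0.23 in DKO and −0.30 and 0.29 in dCD. Several mutant values below lie between those quartiles and near 0, so their sign carries little weight. The values are formative minus naive log2 differences with the chromosome median subtracted. At the Sall3 region 57.6 kb upstream the transition was 0.062 in DKO and 0.23 in dCD, against −2.23 in the floxed line and −3.21 in wild type. At the Sall4 region 37.9 kb upstream it was −0.035 in DKO and −0.15 in dCD, against 1.03 in the floxed line and 1.38 in wild type. At the Sall1 region 615.1 kb upstream (chr8:89658185-89660277) it was −0.24 in DKO and −0.41 in dCD, against 1.27 in the floxed line and 1.27 in wild type. At the Sall1 region 192.0 kb upstream (chr8:89235693-89236587) it was −0.44 in DKO and −0.10 in dCD, against 1.13 in the floxed line and 1.59 in wild type. That last region rests on few reads in the mutants, with 7.62 in formative and 10.6 in naive DKO cells and 7.07 and 7.95 in dCD, and the authors' deposited table gives it an FDR of 0.0982.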

How the results depend on the processing

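The main limit is that 1 pooled column per group shows no variation between libraries. No paired analysis was possible because the pooled columns carry no replicate number, and leaving out each replicate was not run for the same reason. The values below are those that moved by more than a rough counting half-width taken from normalized reads or, for shares and counts, by more than 1.5 times, and the cause was not tested. Medians are over the regions of a gene. Without centring, medians were −1.40 for Sall2, −0.65 for Sall4 in formative DKO minus the floxed line and −0.76 for Sall2, −0.29 for Sall3, −0.31 for Sall4 in naive DKO minus the floxed line. They were −1.09 for Sall1, −0.75 for Sall2, 0.037 for Sall3, −0.80 for Sall4 in formative dCD minus wild type and −0.65 for Sall1, −0.16 for Sall2, −0.33 for Sall3, −0.32 for Sall4 in naive dCD minus wild type. The medians were −0.47 for Sall1 in formative floxed minus wild type and −0.56 for Sall1 in naive floxed minus wild type. Further medians were −0.63 for Sall3 in the floxed transition and 0.15 for Sall1 in the wild-type transition. Shares of the Sall regions past 2-fold were 2.86% higher and 38.9% lower in formative dCD minus wild type, 0% higher and 22.3% lower in naive dCD minus wild type, 2.86% lower in formative floxed minus wild type. Shares were also 0% higher and 8% lower in naive floxed minus wild type, 4% lower in the dCD transition. Centred on all regions, medians were −0.55 for Sall1, −1.27 for Sall2 in formative DKO minus the floxed line and 0.051 for Sall1, −0.58 for Sall2 in naive DKO minus the floxed line. They were −0.80 for Sall1 in formative dCD minus wild type and −0.36 for Sall1 in naive dCD minus wild type. The medians were −0.39 for Sall1 in formative floxed minus wild type and −0.54 for Sall1 in naive floxed minus wild type. Further medians were 0.18 for Sall1 in the wild-type transition. Shares of the Sall regions past 2-fold were 6.29% higher in naive DKO minus the floxed line, 0% higher and 10.3% lower in naive dCD minus wild type, 1.71% lower in formative floxed minus wild type. Shares were also 0% higher and 8% lower in naive floxed minus wild type, 2.86% lower in the dCD transition. With at least 32 normalized reads, medians were −0.88 for Sall1, −0.61 for Sall4 in formative DKO minus the floxed line and −0.39 for Sall1, −0.43 for Sall3 in naive DKO minus the floxed line. They were −0.73 for Sall1, 0.13 for Sall3 in formative dCD minus wild type and −0.28 for Sall1, 0.66 for Sall2, −0.18 for Sall3 in naive dCD minus wild type. The medians were 0.053 for Sall3 in naive floxed minus wild type and −0.011 for Sall3 in the DKO transition. Further medians were −0.16 for Sall1 in the dCD transition and 0.41 for Sall1, −0.82 for Sall3, 0.38 for Sall4 in the floxed transition. Others were 0.40 for Sall1 in the wild-type transition. Shares of the Sall regions past 2-fold were 0.848% higher in naive dCD minus wild type, 0% higher and 0% lower in formative floxed minus wild type, 0% higher and 0.855% lower in naive floxed minus wild type. Shares were also 1.09% lower in the DKO transition. Within 50 kb, medians were −0.47 for Sall1, 0.78 for Sall3, −0.69 for Sall4 in formative DKO minus the floxed line and −0.85 for Sall1, 0.26 for Sall3 in naive DKO minus the floxed line. They were −0.39 for Sall1, 0.67 for Sall3 in formative dCD minus wild type and −0.52 for Sall1, 0.38 for Sall3, 0.071 for Sall4 in naive dCD minus wild type. The medians were 0.083 for Sall3 in naive floxed minus wild type and 0.15 for Sall3 in the DKO transition. Further medians were 0.032 for Sall3 in the dCD transition and −0.27 for Sall1, −0.23 for Sall3, 0.40 for Sall4 in the floxed transition. Others were −0.10 for Sall1, −0.36 for Sall3 in the wild-type transition. Shares of the Sall regions past 2-fold were 2.7% higher in formative DKO minus the floxed line, 8.11% lower in formative dCD minus wild type, 0% higher in naive dCD minus wild type. Shares were also 0% higher and 0% lower in formative floxed minus wild type, 0% higher and 0% lower in naive floxed minus wild type, 0% lower in the DKO transition. Shares were also 8.11% higher and 0% lower in the dCD transition, 2.7% lower in the floxed transition, 2.7% lower in the wild-type transition. Among the medians given here, the sign turned within 50 kb for Sall1 in the floxed and wild-type transitions, for Sall3 in the DKO and dCD transitions and in the 3 naive comparisons between genotypes, and for Sall4 in naive dCD minus wild type. It also turned for Sall2 in naive dCD minus wild type without centring, for Sall1 in naive DKO minus the floxed line centred on all regions, and for Sall3 in naive floxed minus wild type with at least 32 reads. With levels converted to reads, 2.86% of the Sall regions were at least 2-fold lower in the dCD transition, and no gene median moved. At an FDR of 0.01 in the authors' deposited table, 9 Sall regions were lost, against 21 at 0.05, with 6 against 16 of them at Sall3.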
